A study of Mus musculus with 4 samples.

Results

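Heat shock proteins and chaperones, the proteins that bind unfolded chains and help them fold, refold or be degraded, were followed in mouse lung carrying triple-negative breast cancer (TNBC) metastases. The genes were the protein-coding entries of the deposited count table named as Hsp70 and Hsp110 (Hspa and Hsph1), Hsp90, small heat shock proteins (Hspb), J-domain proteins (Dnaja, Dnajb and Dnajc) and subunits of the cytosolic chaperonin (Cct and Tcp1), apart from Hspa9 and Dnajc19. This gave 78 of the 56748 genes in the table, and 69 of them had enough counts to be tested among 15167 tested genes. Female BALB/cJ mice had received 4T1-FLuc cells, a luciferase-expressing mouse TNBC line, through the tail vein. Once metastases were seen, 1 group received saline (named as a PBS control in part of the labels), and the other received cmLumiOpto/PARPi for 3 weeks. cmLumiOpto is an AAV gene therapy, carried by exosomes bearing an antibody to CD276. It expresses a luciferase, supplied with the substrate ViviRen, and a light-gated channel that sits in the inner mitochondrial membrane. The PARP inhibitor was olaparib. Each group had 2 libraries, numbered as separate samples, and both groups carried the same tumor line. The labels describe tumor cells taken from the lungs and the methods describe whole lung tissue with metastases, and alveolar, airway, fibroblast and tumor markers were present in every library. No arm with cmLumiOpto alone or olaparib alone was sequenced among these libraries, so the parts of the combination cannot be told apart.

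Hsp70 proteins hold exposed hydrophobic stretches through cycles of ATP binding and hydrolysis. J-domain proteins deliver clients to Hsp70 and set off the hydrolysis, and Hsp110 proteins release the ADP. Hsp90 matures kinases and steroid receptors, small heat shock proteins keep unfolding proteins soluble without ATP, and the ring-shaped chaperonin folds actin and tubulin. Heat shock factor 1 binds heat shock elements and drives the cytosolic genes under proteotoxic stress, whereas ATF6 and XBP1 drive the genes of the endoplasmic reticulum (ER). Tumor cells often hold both programs at a raised level.

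The promoters of both inducible Hsp70 genes, Hspb1 and Hsph1 are shown first because these genes had the widest spread among the heat-inducible members, followed by 4 ER genes that carry the element of the other program. Sequences are from RefSeq, build GRCm38.p6, 5′ to 3′ along the gene, from 120 bases before to 30 bases after an annotated RefSeq start. Where a gene had several such starts, the window with the most marked elements was shown, so the elements took part in the choice of window. These starts can differ from the GENCODE gene ends. Capitals mark heat shock elements in the first 4 lines (GAANNTTC or TTCNNGAA, both of which read the same on either strand and overlap within the longer GAANNTTCNNGAA) and ER stress response elements in the last 4 (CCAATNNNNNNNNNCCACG or ATTGGNCCACG, searched on both strands).
Hspa1a, chr17:34972127-34972276, minus strand: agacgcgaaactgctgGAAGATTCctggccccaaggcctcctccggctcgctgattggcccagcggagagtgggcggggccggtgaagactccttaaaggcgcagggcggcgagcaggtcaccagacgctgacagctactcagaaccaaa
Hspa1b, chr17:34959209-34959358, minus strand: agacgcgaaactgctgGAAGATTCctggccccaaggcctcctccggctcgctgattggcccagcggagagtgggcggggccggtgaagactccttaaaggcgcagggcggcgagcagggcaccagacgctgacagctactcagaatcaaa
Hspb1, chr5:135887799-135887948, plus strand: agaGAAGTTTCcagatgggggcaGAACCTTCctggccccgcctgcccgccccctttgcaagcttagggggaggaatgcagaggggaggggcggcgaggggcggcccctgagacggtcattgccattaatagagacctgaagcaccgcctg
Hsph1, chr5:149636286-149636435, minus strand: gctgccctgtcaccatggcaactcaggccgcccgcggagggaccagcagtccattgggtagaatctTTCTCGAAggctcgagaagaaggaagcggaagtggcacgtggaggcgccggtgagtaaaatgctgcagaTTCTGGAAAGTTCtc
Hspa5, chr2:34771970-34772119, plus strand: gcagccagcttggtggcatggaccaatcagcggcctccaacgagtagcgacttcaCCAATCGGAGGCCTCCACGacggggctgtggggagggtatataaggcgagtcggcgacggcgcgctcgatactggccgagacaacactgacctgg
Hsp90b1, chr10:86705415-86705564, minus strand: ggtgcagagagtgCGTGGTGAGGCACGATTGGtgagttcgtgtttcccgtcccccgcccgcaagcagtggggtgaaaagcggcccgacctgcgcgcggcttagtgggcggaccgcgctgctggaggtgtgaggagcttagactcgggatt
Dnajc3, chr14:118937812-118937961, plus strand: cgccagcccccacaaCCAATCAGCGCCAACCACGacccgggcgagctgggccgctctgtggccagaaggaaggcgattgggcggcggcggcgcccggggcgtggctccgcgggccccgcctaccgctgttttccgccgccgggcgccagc
Dnajb11, chr16:22857725-22857874, plus strand: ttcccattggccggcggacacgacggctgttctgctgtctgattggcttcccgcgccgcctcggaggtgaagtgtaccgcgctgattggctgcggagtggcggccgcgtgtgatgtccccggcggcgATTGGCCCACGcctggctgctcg

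RefSeq windows of 300 bases were found for 64 of the 78 genes. A heat shock element of 2 units in either order was present in at least 1 window of 18 of these 64 genes. The share over all 27025 genes with a window (32851 windows) was 17%. Of the heat-inducible genes 6 of the 8 with a window held it. The form with 3 units was present in Hsph1 and Dnajb6, against 0.662% of all genes with a window. The ER stress response element was found in Hspa5, Hsp90b1 and Dnajc3, against 0.137% of all genes with a window. Its second form was found in Dnajb11, against 0.0444%. All 4 of these genes belong to the 8 listed members of the ER lumen. The windows of Hspa1a and Hspa1b differed at 2 of 150 bases, and their transcripts were 99.3% identical over 2197 aligned bases, so the authors' counting could have split reads between the pair and the value of each gene is uncertain. A match of letters describes the sequence and is not evidence of binding in these tissues.

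Libraries held 15263375 to 16755228 counts, and 3 counts, used as the limit that a count of 0 allows, corresponded to 0.173 to 0.204 CPM (the count relative to library size, scaled by TMM). Markers of the cell types in the tissue differed between and within groups. Summed alveolar type 2 markers were 1811 and 545 CPM in the saline libraries and 8394 and 3039 CPM in the treated libraries, with 7 of 9 markers higher and 2 lower in both treated libraries. Tumor epithelium markers summed to 2744 and 3217 CPM in saline and to 2411 and 3627 CPM after treatment, and fibroblast markers to 3915 and 2775 CPM against 1285 and 1480 CPM. In such bulk tissue, fewer cells of a type and less RNA per cell cannot be told apart, and the part of cell makeup in the values of the chaperone genes was not tested.

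The chaperone genes as a whole were close to the center of all genes. They held 1.5% to 1.61% of all counts in every library, and Hsp90ab1, Hspa8 and Hspa5 alone made up 47.6% to 50.6% of those. None of the 69 tested genes passed an adjusted p of 0.05 in edgeR's quasi-likelihood test (lowest adjusted p = 0.139, for Dnajc5), as for 0% of all tested genes. DESeq2 passed 1 of them, Dnajc5 (DESeq2 adjusted p = 0.0173), beside 6.67% of all tested genes. At an unadjusted p under 0.05, 5 genes (7.25%) were higher after treatment, beside 9.21% of all tested genes, and 5 (7.25%) were lower, beside 12% of all. The treated pair lay entirely above the saline pair for 20 genes (29%), beside 27.4% of all tested genes, and below them for 14 (20.3%), beside 27.8%. With library totals in place of TMM the unadjusted calls were 5 higher and 3 lower, beside 11.6% and 9.77% of all tested genes, and the separated genes were 26 above and 10 below, beside 31.8% and 23.9%. The median log2 fold change was 0.05, against 0.02 over all tested genes. Single genes ranged from −1.32 to 2.09, within the −10.8 to 7.39 of all tested genes. The shares lie near or under the background, so the group is described by its single members.

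**Figure D1:**
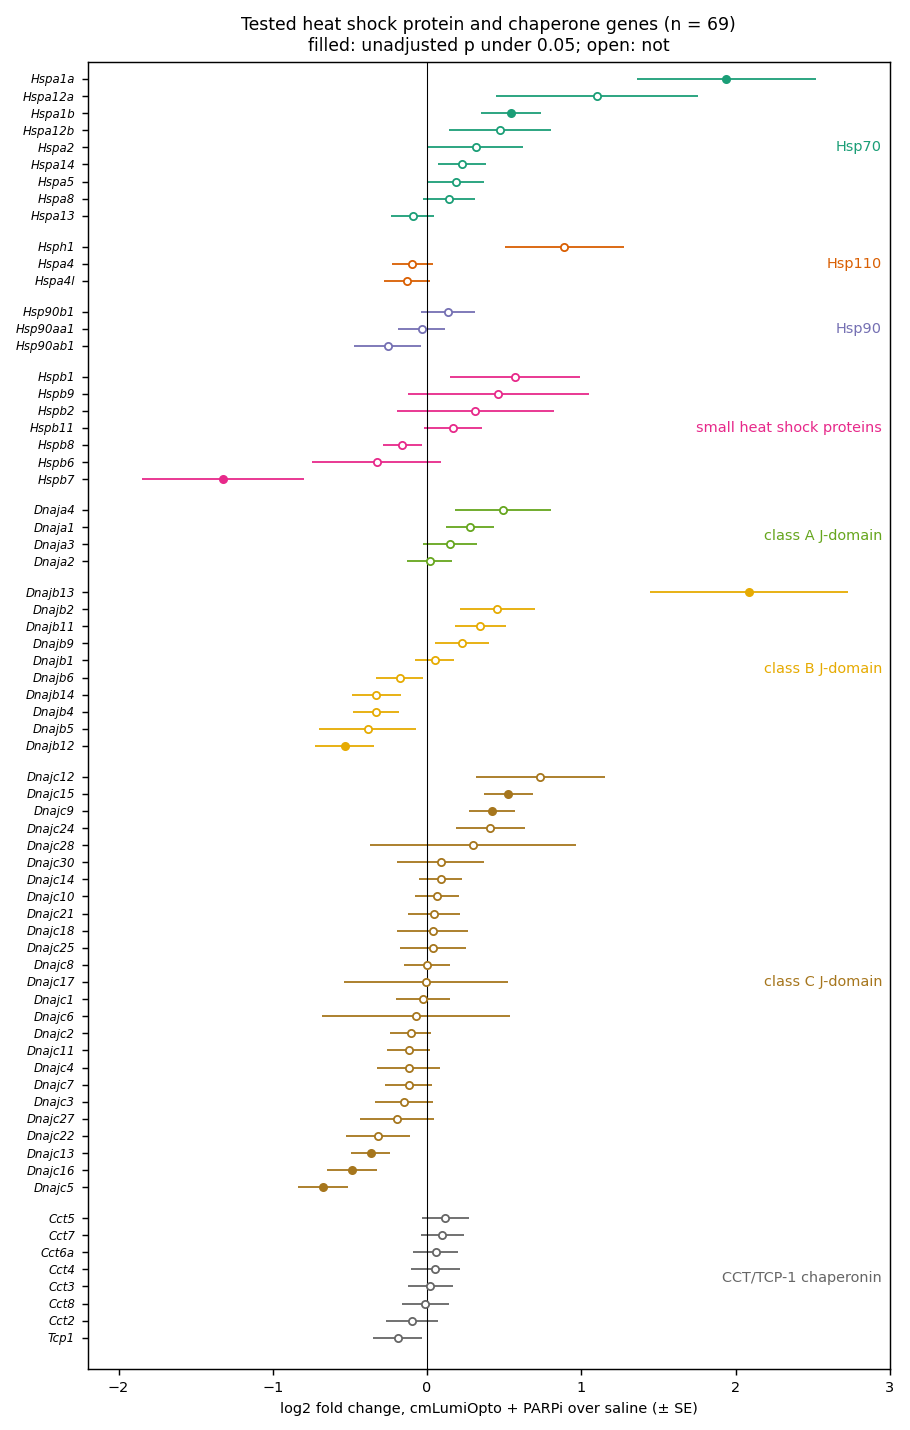
Log2 fold change (cmLumiOpto/PARPi over saline, ± SE, horizontal axis) of the 69 tested chaperone genes, sorted within each family, with filled points for an unadjusted p under 0.05. Hspa1a (1.94) and Dnajb13 (2.09) lie farthest to the right and Hspb7 (−1.32) farthest to the left, while the chaperonin subunits stay between −0.19 and 0.12.

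Both stress-inducible Hsp70 genes were higher in the treated libraries. Hspa1b (ENSMUSG00000090877, chr17:34956436-34959238 in GRCm38), which encodes inducible Hsp70, was at 40.01 and 29.4 CPM in saline and at 53.5 and 48.0 CPM after treatment. The groups did not overlap, and the log2 fold change was 0.55 ± 0.19 (SE, edgeR unadjusted p = 0.0321, adjusted p = 0.202). Hspa1a (ENSMUSG00000091971, chr17:34969190-34972156), its neighbor and near-copy, was far lower, with 1.13 and 0.545 CPM in saline and 4.15 and 2.35 CPM after treatment. Its log2 fold change was 1.94 ± 0.58 (SE, edgeR unadjusted p = 0.0163, adjusted p = 0.168). Summed over the pair, which does not depend on how reads were split between them, the level was 41.1 and 29.98 CPM in saline and 57.6 and 50.3 CPM after treatment, so the pairs were again separated. Saline replicate 2 set much of the size: without it the log2 fold change of Hspa1b was 0.33 and its edgeR adjusted p 0.625, and without saline replicate 1 they were 0.77 and 0.138. Exons of Hspa1a overlap those of Gm20481 on the opposite strand over 564 bases in GENCODE M21, and whether the libraries kept strand is not given. The third gene of this cluster, Hspa1l, the testis-rich Hsp70, held 8 and 13 counts in saline and 6 and 8 after treatment and was not tested.

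The constitutive Hsp70 genes were abundant and differed little. Hspa8, the cognate Hsp70 of the cytosol, was at 1859 and 1978 CPM in saline and at 2181 and 2057 CPM after treatment, with a log2 fold change of 0.14 ± 0.17 (SE). Hspa5, known as BiP, the Hsp70 of the ER, was at 1319 and 1613 CPM in saline and at 1724 and 1617 CPM after treatment, with a log2 fold change of 0.19 ± 0.18. In both genes the treated libraries were above the saline libraries, but for Hspa5 the lower treated library (1617 CPM) lay next to the higher saline library (1613 CPM). Hspa12a, a divergent Hsp70 relative, was at 2.01 and 1.16 CPM in saline and at 5.12 and 1.68 CPM after treatment, and its log2 fold change of 1.10 was 0.08 without treated replicate 1. Of the 9 tested Hsp70 genes, 8 had a positive log2 fold change, beside 52% of all tested genes. Of these 9 genes 5 were separated upward (55.6%) and none downward, beside 27.4% and 27.8% of all, and the family median was 0.32, or 0.10 without treated replicate 1. An unadjusted p under 0.05 was reached by Hspa1a and Hspa1b alone among them. This pair, counted among the genes separated upward, may share reads and is not made of separate measurements.

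The highest values of Hsph1 and Hspb1 came from a single library. Hsph1 (chr5:149614287-149636376), the heat-inducible Hsp110, was at 43.0 and 41.4 CPM in saline and at 109.8 and 46.5 CPM after treatment. In its printed promoter window the element with 3 units lay after the RefSeq start used for that window. The log2 fold change of Hsph1 was 0.89 ± 0.39 (SE, edgeR unadjusted p = 0.0624, adjusted p = 0.256), and without treated replicate 1 it was 0.14. Hspb1, the small heat shock protein known as Hsp27 in human cells, was likewise highest there, with 18.9 and 18.6 CPM in saline and 39.8 and 15.8 CPM after treatment. Its groups overlapped, and the log2 fold change of 0.57 ± 0.42 turned to −0.25 without treated replicate 1. Treated replicate 1 was also the library with the highest alveolar type 2, alveolar type 1, endothelial and T cell marker sums (endothelial 796 CPM, against 542, 433 and 437 CPM in the others), and their part in Hsph1 and Hspb1 was not tested. The other Hsp110 genes had no such peak. Hspa4 was at 291 and 271 CPM in saline and at 265 and 261 CPM after treatment, and Hspa4l at 83.9 and 99.9 CPM against 88.8 and 79.0 CPM. Their log2 fold changes of −0.10 and −0.13 became 0.19 and 0.29 when the trend with gene length and expression was subtracted.

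**Figure D2:**
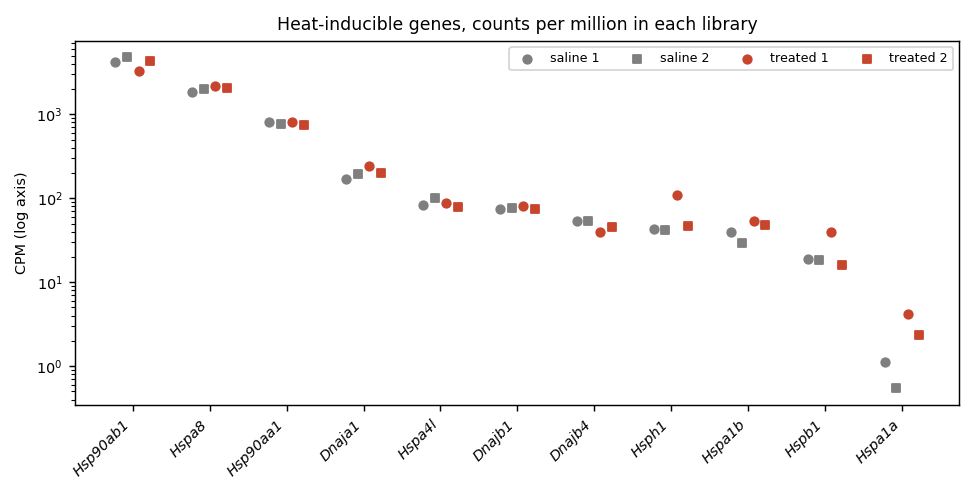
CPM (log axis) of the 11 heat-inducible genes in each library, with gray symbols for saline and red symbols for cmLumiOpto/PARPi. Hspa1a and Hspa1b are higher in both treated libraries, whereas Hsph1 and Hspb1 stand out only in treated replicate 1, at 109.8 and 39.8 CPM.

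The heat-inducible genes did not move as 1 block. Of the 11 genes, 2 were higher at an unadjusted p under 0.05 (18.2%) and none lower, beside 9.21% and 12% of all tested genes. These 2 were Hspa1a and Hspa1b, whose reads may have been split between them, so they are not separate measurements. Both also count among the genes separated upward. In 5 the groups were separated upward (45.5%) and in 1 downward (9.09%), beside 27.4% and 27.8% of all. The median log2 fold change of the 11 genes was 0.14, which was −0.01 without treated replicate 1. It was 0.29 when the trend with gene length and expression was subtracted. Dnaja1, the main cytosolic J-domain partner of Hsp70, was at 171 and 192 CPM in saline and at 239 and 202 CPM after treatment, a log2 fold change of 0.28 ± 0.15 (SE). Dnajb1, known as Hsp40 and among the most heat-responsive genes of cultured cells, was at 73.9 and 77.5 CPM in saline and at 81.3 and 75.3 CPM after treatment. Its groups overlapped, with a log2 fold change of 0.05 ± 0.13. Dnajb4, a relative of Dnajb1, differed in the other direction, at 53.3 and 54.0 CPM against 39.4 and 46.0 CPM (log2 fold change −0.33 ± 0.15, edgeR unadjusted p = 0.0708, adjusted p = 0.269). Its log2 fold change was −0.05 when the trend with gene length and expression was subtracted. Within the treated group, 9 of the 11 genes were higher in replicate 1 than in replicate 2, beside 50.2% of all tested genes, and 7 had their highest value of all 4 libraries there. Over all tested chaperone genes 26 (37.7%) had their highest value in treated replicate 1, beside 32% of all tested genes.

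**Figure D3:**
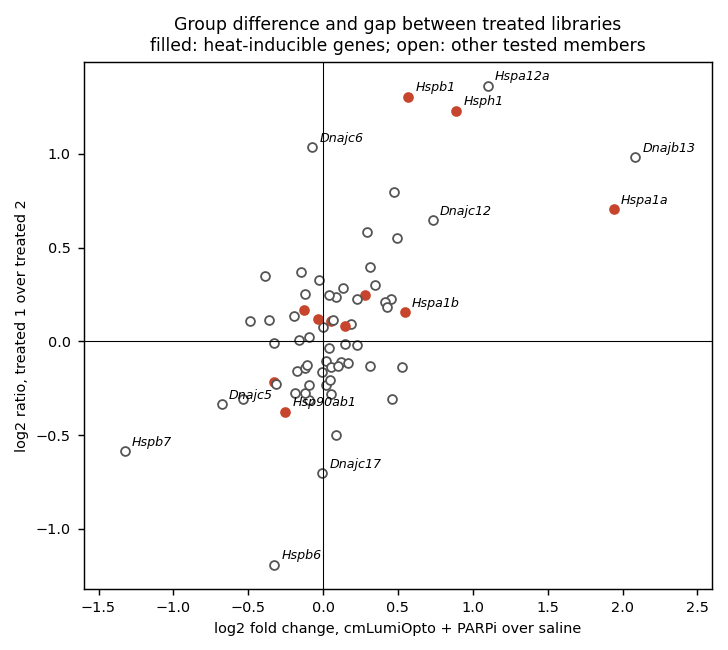
Log2 fold change between groups (horizontal axis) against the log2 ratio of treated replicate 1 over treated replicate 2 (vertical axis, CPM plus 0.5) for the 69 tested genes, with heat-inducible genes filled. Hsph1 and Hspb1 lie high, where the gap between the treated libraries exceeds the difference between groups, and Hspa1b lies close to the horizontal line at 0.

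The gap between treated libraries was larger than the group difference for 36 of the 69 genes (52.2%), beside 40.5% of all tested genes. The median gap between replicates on the log2 scale was 0.14 in saline and 0.23 after treatment, against 0.23 and 0.24 over all tested genes. The saline libraries thus lay closer to each other at the median chaperone gene than at the median tested gene, as a description with no test. The genes were not matched for expression.

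Hsp90 genes had no separated groups. Hsp90ab1, the constitutive cytosolic Hsp90 and the most abundant chaperone mRNA per length (1503 RPKM in saline and 1260 RPKM after treatment), was at 4244 and 4769 CPM in saline and at 3289 and 4267 CPM after treatment. The log2 fold change was −0.25 ± 0.22 (SE), and it was −0.08 without treated replicate 1 and −0.48 without treated replicate 2. Hsp90aa1, the inducible form, was at 814 and 763 CPM in saline and at 802 and 737 CPM after treatment, and these ranges overlapped. The ratio of Hsp90ab1 to Hsp90aa1 counts was 5.22 and 6.25 in saline and 4.10 and 5.79 after treatment, and these ranges overlapped. Hsp90b1, known as GRP94, the Hsp90 of the ER, was at 554 and 632 CPM in saline and at 715 and 586 CPM after treatment, with a log2 fold change of 0.13 ± 0.17. The family median was −0.04, beside 0.02 over all tested genes. It was 0.03 with library totals in place of TMM, beside 0.09, and 0.13 after the length trend was subtracted, beside 0.004. No direction can be given.

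The cytosolic chaperonin was the most even family. It is a ring of 8 different subunits, and the 8 genes in use had log2 fold changes between −0.19 and 0.12 with a median of 0.04, or −0.08 without treated replicate 2. Their summed level was 3342 and 3574 CPM in saline and 3273 and 3714 CPM after treatment, and the ranges overlapped. Cct5 was highest per length, at 205 and 223 RPKM in saline and 224 and 242 RPKM after treatment, and Cct7 was lowest, at 53.2 and 54.1 RPKM against 54.9 and 60.1 RPKM. These were also the 2 subunits whose treated libraries were both above the saline libraries, with log2 fold changes of 0.12 ± 0.15 and 0.10 ± 0.14 (SE). Tcp1, the alpha subunit, was the 1 subunit below in both treated libraries, at 64.4 and 77.9 RPKM against 80.0 and 82.3 RPKM (log2 fold change −0.19 ± 0.16). This was −0.06 without treated replicate 1 and −0.35 without treated replicate 2, and it became 0.07 after the length trend was subtracted. Cct2 was at 170.2 and 184 RPKM in saline and at 148 and 184 RPKM after treatment, and Cct6a at 123 and 134 RPKM against 127 and 139.7 RPKM. Cct4, Cct8 and Cct3 likewise overlapped between groups, with log2 fold changes of 0.05, −0.01 and 0.02. The order of the subunits by level was the same in all libraries at its top, Cct5 then Cct2 then Cct6a. Of the tissue-restricted subunits, Cct6b held 1 to 9 counts a library and Cct8l1 none.

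**Figure D4:**
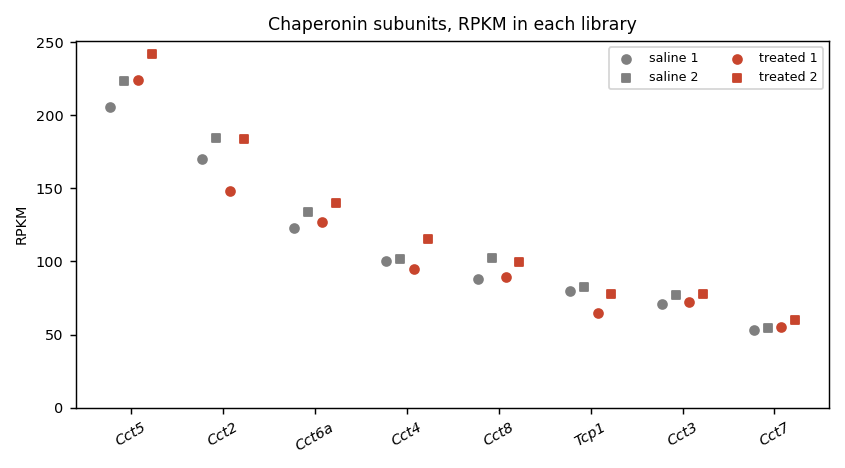
RPKM of the 8 chaperonin subunit genes in each library, ordered by their saline level, with gray symbols for saline and red symbols for cmLumiOpto/PARPi. Differences between subunits, from Cct5 at 205 to 242 RPKM down to Cct7 at 53.2 to 60.1 RPKM, are far larger than those between groups.

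Among the 8 members of the ER lumen, the BiP cofactor Dnajb11, known as ERdj3, had the smallest p. It was at 69.3 and 82.6 CPM in saline and at 107 and 86.4 CPM after treatment, with a log2 fold change of 0.35 ± 0.17 (SE, edgeR unadjusted p = 0.0866, adjusted p = 0.294), and it was 0.19 without treated replicate 1 and 0.21 without saline replicate 1. The groups were separated by a narrow gap between treated replicate 2 and saline replicate 2. Of these 8 genes, 3 were separated upward (Hspa5, Dnajb11 and Dnajb9, 37.5%) and none downward, beside 27.4% and 27.8% of all tested genes. None reached an unadjusted p under 0.05. The median was 0.10, or −0.01 without saline replicate 1 and 0.30 after the length trend was subtracted. Dnajc3, the ER partner of BiP that also restrains PERK, whose promoter held the same element as Hspa5 and Hsp90b1, had a log2 fold change of −0.15. These 3 genes thus ran from −0.15 to 0.19, and Dnajb11, with the second form of the element, was at 0.35.

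Of the 39 tested J-domain genes 7 (17.9%) had an unadjusted p under 0.05 in either direction, beside 21.2% of all tested genes. Dnajc5, the cysteine string protein of secretory vesicles, had the lowest p of all members (chr2:181520485-181555133). It was at 210.5 and 222 CPM in saline and at 119.6 and 151 CPM after treatment, with a mean of 216 ± 8.12 CPM against 135 ± 22.2 CPM (SD, 2 libraries each). The groups were well apart, and the log2 fold change was −0.68 ± 0.16 (SE, edgeR unadjusted p = 0.00623, adjusted p = 0.139), and it was −0.34 after the length trend was subtracted. Dnajc16, an ER-anchored J-domain protein, was at 30.7 and 31.0 CPM in saline and at 22.9 and 21.2 CPM after treatment (log2 fold change −0.49, edgeR unadjusted p = 0.0257, adjusted p = 0.190). Dnajc13, known as RME-8, which sorts cargo on endosomes, was at 90.4 and 91.4 CPM against 73.5 and 67.8 CPM (−0.36 on the log2 scale, edgeR unadjusted p = 0.0291, adjusted p = 0.197), and with the length trend subtracted it was at 0.06. Dnajb12, which stands in the ER membrane and serves protein degradation, was at 53.9 and 68.5 CPM against 37.7 and 46.8 CPM (−0.53 on the log2 scale, edgeR unadjusted p = 0.0323, adjusted p = 0.202). Its close relative Dnajb14 was at 42.1 and 51.1 CPM in saline and at 37.0 and 37.2 CPM after treatment, with a log2 fold change of −0.33 that became 0.07 after the length trend was subtracted. All 5 of these genes were lower in both treated libraries. Dnajc22 was also lower in both, at 21.5 and 27.1 CPM against 18.0 and 21.1 CPM, and Dnajb5 overlapped, at 11.2 and 7.70 CPM against 8.17 and 6.32 CPM.

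On the higher side, Dnajc15, a J-domain protein of the mitochondrial inner membrane that restrains respiratory complex I, was at 28.8 and 33.1 CPM in saline and at 42.5 and 46.8 CPM after treatment. The groups were separated by more than either gap within them, with a log2 fold change of 0.53 ± 0.16 (SE, edgeR unadjusted p = 0.0173, adjusted p = 0.171), and it was the only 1 of 4 mitochondrial members with an unadjusted p under 0.05. Dnajc9, a nuclear J-domain protein that chaperones histones, was at 41.4 and 38.6 CPM in saline and at 57.1 and 50.2 CPM after treatment (log2 fold change 0.42 ± 0.15, edgeR unadjusted p = 0.0305, adjusted p = 0.200). Markers of cell division summed to 1179 and 1168 CPM in saline and to 833 and 1078 CPM after treatment. Birc5 alone of the 8 markers was higher in both treated libraries, and 3 (Mki67, Top2a and Bub1) were lower in both. The part of cell division in Dnajc9 was not tested.
Dnajb13, a radial spoke protein of motile cilia and sperm tails, had the largest log2 fold change, 2.09 ± 0.64 (SE, edgeR unadjusted p = 0.0184, adjusted p = 0.174), from 0.439 and 0.681 CPM in saline to 3.34 and 1.44 CPM after treatment, and it was 1.36 without treated replicate 1. Ciliated airway markers moved with it. All 11 measured markers of that list were higher in both treated libraries, their sum was 14.5 and 6.88 CPM in saline and 74.3 and 40.9 CPM after treatment, and Rsph4a, Dnah5, Dnai1 and Sntn were at 0 in saline replicate 2. Their part in Dnajb13 was not tested. Exons of Dnajb13 overlap those of Ucp2 on the opposite strand over 305 bases in GENCODE M21, so their reads may not be separable.
Smaller separated differences were seen for Dnajb2, a J-domain protein that hands clients to the proteasome (28.3 and 18.7 CPM against 34.8 and 29.7 CPM), and for Dnajc24, which takes part in making diphthamide (10.5 and 11.04 CPM against 15.4 and 13.2 CPM). Dnajc12, which binds aromatic amino acid hydroxylases, was at 2.82 and 2.45 CPM against 5.47 and 3.31 CPM. The log2 fold change of Dnajb2 was 0.46, or 0.17 without saline replicate 2, and that of Dnajc12 was 0.73, or 0.32 without treated replicate 1. Class B had a median log2 fold change of −0.06 over 10 tested genes and class C of −0.01 over 25, beside 0.02 over all tested genes. With library totals in place of TMM these medians were 0.003 and 0.06, beside 0.09 over all tested genes.

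Among the genes named as small heat shock proteins (Hspb), 1 of 7 tested genes (14.3%) was lower at an unadjusted p under 0.05 and none higher, beside 12% and 9.21% of all tested genes. Hspb7, the cardiovascular small heat shock protein, was at 2.57 and 4.57 CPM in saline and at 1.04 and 1.81 CPM after treatment, the lowest log2 fold change of all members (−1.32 ± 0.52 SE, edgeR unadjusted p = 0.0460, adjusted p = 0.229). Its groups did not overlap. Cardiac muscle markers summed to 102 and 92.7 CPM against 67.9 and 156 CPM, mostly from Tnnt2. Smooth muscle markers summed to 178 and 223 CPM against 194 and 151 CPM. Of the 7 cardiac muscle markers 3 were higher in both treated libraries and none lower. Of the 6 smooth muscle markers 2 were lower in both, Acta2 among them, and 1 was higher. Of the 6 fibroblast markers 5 were lower in both and none higher. Their part in Hspb7 was not tested. Hspb8, the partner of Bag3 in selective autophagy, was at 96.2 and 106 CPM in saline and at 90.8 and 90.3 CPM after treatment, a log2 fold change of −0.16. The 7 tested genes, grouped by the Hspb name alone, had a median log2 fold change of 0.17, the value of Hspb11. The median was −0.09 after the length trend was subtracted.

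The other untested genes were barely read. Dnajb3 held 1 to 5 counts a library, Dnajb7 at most 1, and Hspb3 at most 3. Dnajc5b had 8 counts in treated replicate 1 and none elsewhere. Dnajb8 and Dnajc5g, like Cct8l1, had 0 counts in all 4 libraries, which allows up to 0.173 to 0.204 CPM from counting error alone.

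Genes that work with these chaperones were examined as lists. At an unadjusted p under 0.05, 9.21% of all tested genes were higher and 12% lower, and the counts of each list are read against these shares. Of 4 tested genes in the list of heat shock factors and their binding protein Hsbp1, 2 (50%) were higher at an unadjusted p under 0.05 and none lower. They were Hsf4, at 0.564 and 0.886 CPM in saline and 2.71 and 2.65 CPM after treatment (log2 fold change 1.88), and Hsbp1, which binds and restrains Hsf1, at 111 and 129 CPM against 161 and 162 CPM (0.43). Hsf1 itself was at 26.7 and 29.2 CPM in saline and at 38.3 and 31.9 CPM after treatment. Its log2 fold change was 0.33 ± 0.17 (SE, edgeR unadjusted p = 0.109, adjusted p = 0.327). Hsf2 overlapped between groups, with a log2 fold change of 0.03. Among 24 co-chaperones of Hsp70 and Hsp90, 3 were higher (12.5%) and 2 lower (8.33%), both shares being near those of all genes. Chordc1, an Hsp90 partner, was at 47.1 and 45.3 CPM against 89.9 and 65.7 CPM (log2 fold change 0.75), and Ptges3, known as p23, had a log2 fold change of 0.35. Fkbp5, an Hsp90 partner that glucocorticoids induce, was at 268 and 399 CPM against 149 and 199.8 CPM (−0.94), and Bag6 was at 339 and 372 CPM against 209 and 281 CPM (−0.54).

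Prefoldin hands nascent actin and tubulin to the chaperonin. Of 12 genes of prefoldin and other chaperonin cofactors, 9 were separated upward (75%) and 1 downward, beside 27.4% and 27.8% of all tested genes, with 3 higher (25%) and 1 lower (8.33%) at an unadjusted p under 0.05. Pfdn5 was at 113 and 117 CPM in saline and at 198 and 186 CPM after treatment (log2 fold change 0.74), Pdrg1 at 17.1 and 14.3 CPM against 32.8 and 29.5 CPM (0.98), and Pfdn1 at 58.4 and 57.5 CPM against 71.6 and 76.1 CPM (0.35). Uri1 was lower, at 75.7 and 84.0 CPM against 55.4 and 66.7 CPM (−0.39). These are short genes (median 2288 bases, against 4127 bases over all tested genes), and all tested genes showed a trend with length, from a median log2 fold change of 0.31 in the shortest of 5 equal length groups to −0.27 in the longest. With that trend subtracted, the median of the prefoldin list went from 0.29 to 0.10.

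Of 21 genes of ER folding and quality control, 3 were higher (14.3%) and 1 lower (4.76%) at an unadjusted p under 0.05. Creld2 was at 31.7 and 38.4 CPM against 58.7 and 51.7 CPM (log2 fold change 0.66), Derl2 at 40.7 and 33.7 CPM against 58.9 and 51.5 CPM (0.57), and Manf, a secreted ER protein, at 161 and 168 CPM against 216 and 214 CPM (0.39). Sel1l, a scaffold of ER-associated degradation, was at 146 and 148 CPM against 108 and 104 CPM (−0.47). Among 13 mitochondrial chaperones and proteases, 2 were higher (15.4%) and none lower. Hspe1, the Hsp10 lid of the mitochondrial chaperonin, was at 117 and 122 CPM against 227 and 188 CPM (log2 fold change 0.80), and Grpel1, which exchanges nucleotide on mitochondrial Hsp70, at 56.7 and 62.8 CPM against 75.4 and 76.8 CPM (0.35). Of the 6 tested relatives that the naming left out, 1 was higher (16.7%), Cryab (0.69), and 3 were lower (50%), among them Clu (−0.63) and Gak (−0.48). Cryab shares exon bases with Hspb2 on the opposite strand, so their reads may not be separable. After the length trend was subtracted, the log2 fold changes were −0.10 for Sel1l, 0.03 for Pfdn1, −0.21 for Bag6, −0.48 for Fkbp5 and −0.18 for Gak, each under its fitted size. No gene of these lists passed an adjusted p of 0.05 in edgeR (lowest adjusted p = 0.138).

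**Figure D5:**
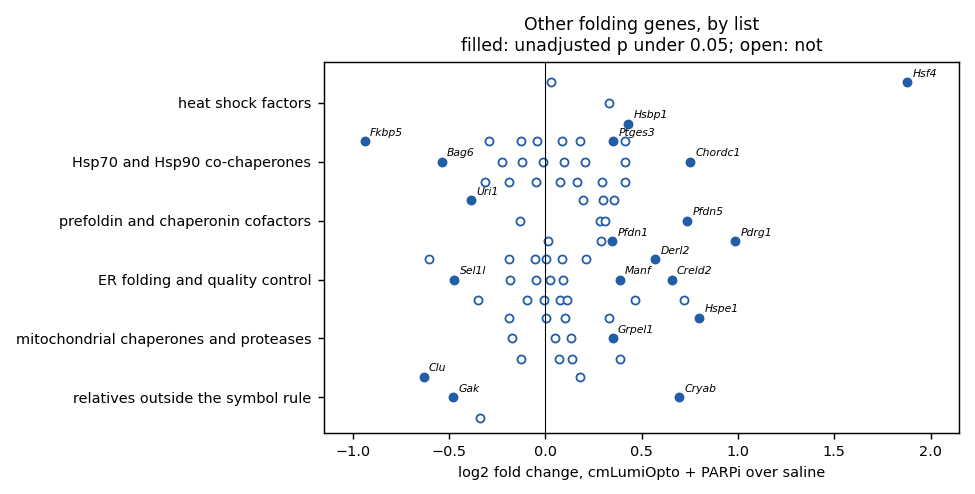
Log2 fold change (cmLumiOpto/PARPi over saline, horizontal axis) of tested genes from 6 lists of chaperone partners, with filled, named points for an unadjusted p under 0.05. Most prefoldin genes lie to the right of 0, up to Pdrg1 at 0.98, while the co-chaperones spread from Fkbp5 at −0.94 to Chordc1 at 0.75.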

How the data were processed

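Total mRNA from lungs with 4T1 metastases (saline and cmLumiOpto/PARPi, 2 libraries each) was purified on poly-T beads and sequenced on the Illumina HiSeq platform. According to the methods, the authors mapped reads to GRCm38 with HISAT2, whereas the submitters' processing notes name mm39. The deposited counts per gene are not normalized. The counting tool and the use of strand are not given in the sources used here. Exons of further genes described above overlap exons on the opposite strand in GENCODE M21. Among them are Dnaja1 (608 bases, with Smu1), Tcp1 (571, with Acat3), Cct6a (452, with Psph) and Hsp90b1 (415, with 1810014B01Rik), so their reads may not be separable. Coordinates printed are those of GENCODE M21 and RefSeq (GRCm38), since positions in the table differed from them.

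Counts were tested in edgeR 4.0.16 (TMM scaling, low counts removed by filterByExpr at a minimum of 10, glmQLFit with glmQLFTest, Benjamini-Hochberg adjustment over all tested genes, threshold 0.05), in R 4.3.3. The fit was checked on simulated data with planted changes larger than those of nearly all chaperone genes. It does not show how well smaller changes are recovered. A standard error is the log2 fold change divided by the square root of F. RPKM used the gene lengths of the table. The length trend was a loess fit of log2 fold change on log2 length and mean log2 CPM (span 0.5). Alternatives were DESeq2 1.42.0, other scalings and filters, the replicate block and leaving out each library. Promoters were searched by exact letters, and transcripts were aligned with Biopython 1.88. Libraries of a group differed by more than sampling error (chi-square per degree of freedom 26.1 for saline and 44.9 for treated). The labels do not tie samples to separate mice, so p-values measure the spread between these samples. An exact permutation test of 2 against 2 libraries cannot go below p = 0.333 and was not used.

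The genes and lists were chosen with earlier results of these data known. Values are given for the heat-inducible list, all Hsp90, Hsp110 and chaperonin genes, the 12 tested genes higher and the 12 lower with the smallest p, and up to 3 genes in each direction of every partner list, except for genes that are not reported here. Genes named beyond these (such as Dnajc3) and the promoters shown were chosen after their values were seen.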

Additional observations from a re-analysis of the deposited data

How the results depend on the processing

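No member passed an adjusted p of 0.05 in edgeR under RLE scaling, library totals, the quasi-likelihood fit without its legacy option, a minimum count of 30, or without any single library. DESeq2 passed 1 (Dnajc5, among 1011 of 15167 genes), the fit with no filter on low counts passed 4 (Dnajc5, Hsph1, Hspa1a and Dnajb13, among 2000 of 25435 genes), and the fit with the replicate block passed 3 (Dnajc5, Dnajb12 and Hspa1a, among 1822 of 15167 genes). The labels do not say that a replicate number marks a shared animal or batch, and only 2 pairs exist: the differences between replicates correlated between the groups with a Spearman coefficient of 0.298 over 15167 genes, from 1 pair of differences. Under that block, partner genes passing were 3 co-chaperones, 2 prefoldin genes, 3 ER genes, 1 mitochondrial gene and 3 relatives. Members higher at an unadjusted p under 0.05 were 5, against 8 with no filter and 1 to 7 without single libraries (1 without treated replicate 1, 2 without saline replicate 2, 3 without saline replicate 1), while all tested genes went from 1397 to 2214 with no filter and to 643 to 1574 without single libraries. Members lower were 5, against 3 with library totals and 1 to 5 without single libraries (1 without saline replicate 2 or treated replicate 1, 3 without saline replicate 1), while all tested genes went from 1824 to 1482 and to 1045 to 1890. Separated members were 27 to 31 above and 18 to 26 below without single libraries (36.7% to 42.2% and 36.6% to 39.4% of all tested genes), since 3 libraries separate more easily than 4. The median over members ran from −0.00194 (without saline replicate 1) to 0.11. Signs of log2 fold changes turned with the length trend subtracted for Hspa4l (0.291), Hspa4 (0.190), Hsp90aa1 (0.129), Dnajb14 (0.0740), Tcp1 (0.0714), Dnajc13 (0.0575) and Cct8 (0.0345), with library totals for Hsp90aa1 (0.0311) and Cct8 (0.0566), and with a minimum count of 30 for Cct8 (0.00787). Without single libraries the log2 fold change ran from −0.247 to 1.06 for Hspb1, −0.0983 to 0.00238 for Hsp90aa1, −0.00788 to 0.0822 for Dnajb1, −0.0165 to 0.248 for Hsp90b1, −0.0545 to 0.0700 for Cct3, −0.0363 to 0.121 for Cct6a, −0.116 to 0.188 for Cct4, −0.284 to 0.0519 for Cct2 and −0.128 to 0.0854 for Cct8. Apart from the length trend, whose subtraction changes values by its construction, the cause of these changes was not tested. Library totals moved the median of all genes from 0.02 to 0.09. At 2 libraries a group, counting error adds to the spread of low genes such as Hspa1a (8 to 72 counts a library) and Dnajb13 (7 to 58), and its part was not tested.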
